A study of Mus musculus with 6 samples.

Results

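The Golgi glycosyltransferases and mannosidases are the enzymes that trim, extend and cap the sugar chains of proteins and lipids on their way through the secretory pathway. They were taken here as every gene whose symbol belongs to the St3gal, St6gal, St6galnac, St8sia, B4galt, B3galt, B3gnt, Mgat, Man1a, Man1b, Man1c, Man2a, Galnt, Gcnt or numbered Fut families, with the probe set brightest over all arrays standing for the gene. This gave 87 of 18193 genes on the array, read by 181 of 34945 probe sets. Gene expression had been measured on 1-colour Affymetrix arrays in 3 samples of plasma cells from bone marrow (B220- CD138+) and 3 samples of B cells from spleen (B220+ CD23+), all of the C57BL/6 strain. The plasma cells came from animals given a booster dose of KLH, a protein antigen, 7 days earlier. They were enriched on magnetic beads before sorting, with 50000 to 70000 cells for an array, and the naive B cells entered with 2000000 to 3000000. Tissue, boost, bead enrichment and input therefore differed together with the cell type and cannot be told apart from it. The labels give no age, and do not tell whether each replicate was its own animal. The p-values therefore reflect only how far these samples scatter, and that scatter may be technical.

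An antibody heavy chain carries N-linked sugar chains, which are built on a lipid in the endoplasmic reticulum (ER), transferred to asparagine and then remodelled in the Golgi. Mannosidases first trim the chain, N-acetylglucosaminyltransferases of the Mgat family start its branches, and galactose, fucose and sialic acid are added last. The fucose on the innermost sugar and the terminal galactose and sialic acid of IgG are known for altering how the antibody binds Fc receptors. O-linked chains are started separately by the Galnt enzymes on serine and threonine, and many of the same extending and capping enzymes also act on them or on glycolipids.

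The sort markers matched the labels. Sdc1, which encodes CD138, was at 13218, 12664 and 12851 in plasma cells and at 969, 1065 and 1183 in B cells, and Fcer2a, which encodes CD23, was at 52.0, 44.0 and 48.4 in plasma cells and at 5061, 6734 and 6301 in B cells. B cell array 1 stood apart. Its correlation with B cell arrays 2 and 3 was 0.945 and 0.941 over the log2 values of all named probe sets, which are not independent replicates, against 0.993 between arrays 2 and 3. T and NK cell markers summed to 2076, 1719 and 4758 on the plasma cell arrays, against 5883 on B cell array 1 and 477 and 533 on the other B cell arrays (11 genes). Of these sums, Il7r, which early B lineage cells also express, gave 963, 559 and 2834 on the plasma cell arrays. It gave 651 on B cell array 1 and 36.1 and 30.0 on the others. Granulocyte markers summed to 8468, 19970 and 14715 on the plasma cell arrays and to 12561, 2788 and 1797 on the B cell arrays (8 genes). The transcript of the inactive X chromosome, Xist, was high on all plasma cell arrays (8070 to 8702) and on B cell array 1 (8408) but at 30.8 and 18.1 on B cell arrays 2 and 3, so sex was not matched. The part of these differences in the results was not tested, except that each result is also given without B cell array 1 where that array decides it.

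Levels of these enzymes differed in both directions. Of the 87 genes, 22 rose in plasma cells, 17 fell and 48 were not called (limma, Benjamini-Hochberg adjusted p of at most 0.05 over all 18193 genes). That is 25.3% higher and 19.5% lower, beside 17.6% higher and 12.3% lower among all genes. The median log2 fold change was −0.16 over the 87 genes and −0.06 over all genes. A change of at least 2-fold was called for 17 higher and 13 lower genes, against 10.9% and 6.78% of all genes. The plasma cell arrays lay above every B cell array for 25 genes and below every one for 24, where all genes gave 25.4% and 22.4%. The set was fixed by gene symbol and its counts were not tested against other sets. Background was set by the bacterial control probe sets, whose 95th percentile was 23.0 to 41.8 on the 6 arrays, and 61 of the 87 genes lay over it on all 3 arrays of at least 1 group. The 14 genes that lay within it on all 6 arrays are not interpreted. In sorted bulk samples, fewer cells that express a gene and less RNA per cell cannot be told apart.

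**Figure D1:**
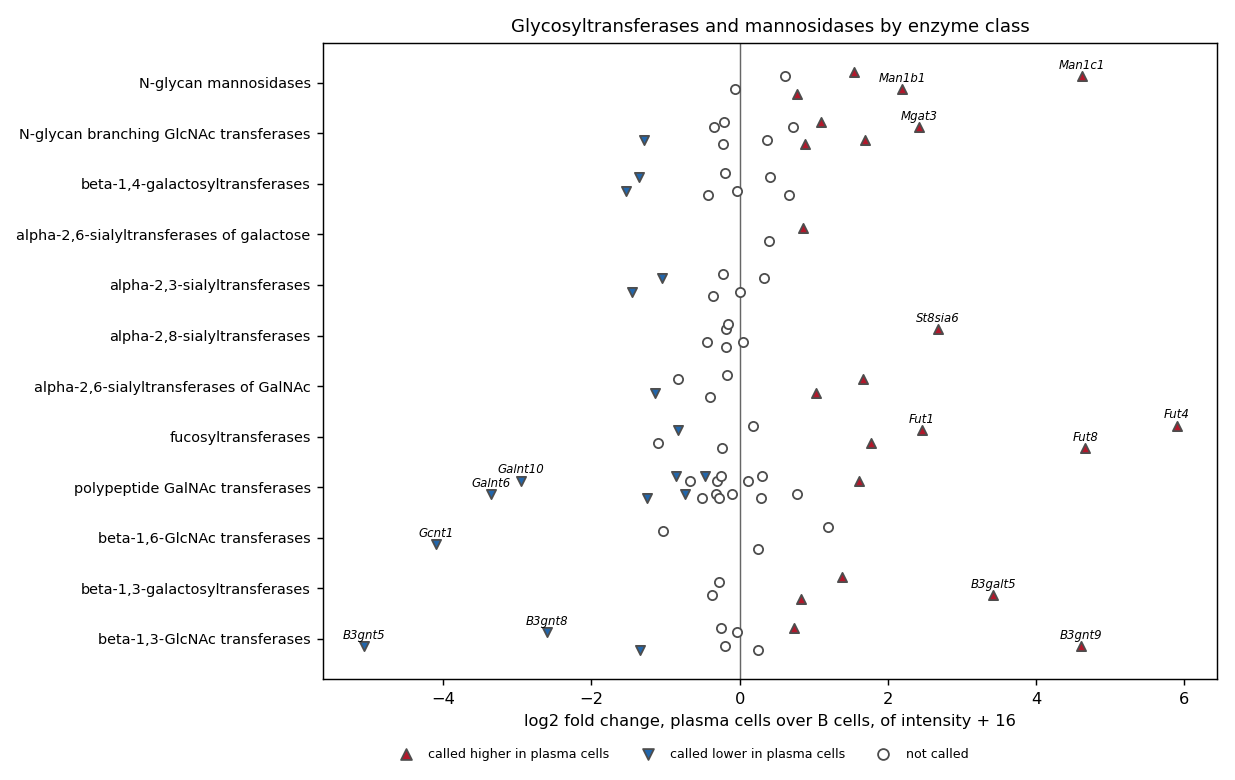
Log2 fold change of each of the 87 genes, plasma cells over B cells, on the scale of intensity plus 16, grouped by enzyme class from N-glycan trimming at the top to chain extension at the bottom. Upward triangles are the 22 genes called higher, downward triangles the 17 called lower and open circles those not called, and genes beyond a log2 fold change of 2 are named. No mannosidase was called lower, and 6 of 7 called Galnt genes were.

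Of 6 mannosidases, which trim a mannose-rich chain towards a complex one, 4 rose, 0 fell and 2 were not called, with a median log2 fold change of 1.16. All genes gave 17.6% higher and 12.3% lower. Man1c1, one of the Golgi mannosidases that trim the chain before branching, changed most. It had an intensity of 4844, 4484 and 4543 in plasma cells and 140, 176 and 211 in B cells (a log2 fold change of 4.61 ± 0.17 SE, limma adjusted p = 4.43e-05). All 3 plasma cell arrays lay more than an order of magnitude above all B cell arrays. Its relatives moved less or not at all. Man1a2 was at 3133, 2778 and 2596 in plasma cells and 916, 1004 and 971 in B cells (1.54 ± 0.13, adjusted p = 0.000458), and its 4 probe sets were all called higher. Man1a, another trimming enzyme of the Golgi, was at 7603, 8252 and 6754 in plasma cells and 7487, 7922 and 8248 in B cells. The groups overlapped and Man1a was not called (−0.07 ± 0.13, adjusted p = 0.730). Its direction depends on the probe set, since the dimmer one gave 0.46 (adjusted p = 0.0677). Man1b1, the mannosidase that trims glycoproteins in the ER, was at 4009, 3895 and 3978 in plasma cells and 423, 1208 and 1204 in B cells (2.19 ± 0.42, adjusted p = 0.0106). B cell array 1 was the low one, and without it the log2 fold change was 1.70 (adjusted p = 0.000166, from 0.00011 to 0.0445 over the alternatives).

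Of the enzymes that act after the first trimming, Mgat1, Mgat2 and Man2a1 rose and Man2a2 was not called. Mgat1 adds the N-acetylglucosamine that every complex or hybrid chain needs. It was at 4154, 3917 and 3717 in plasma cells and 1436, 2203 and 1910 in B cells (1.10 ± 0.18, adjusted p = 0.00656). Centring the arrays over the genes tested ended that call (0.0516, with 0.000489 the lowest over the alternatives). Man2a1 and Man2a2, which remove further mannoses once Mgat1 has acted, differed in their calls. Man2a1 was at 5624, 5290 and 4907 in plasma cells and 2638, 3125 and 3483 in B cells (0.78 ± 0.15, adjusted p = 0.0108), a call lost without plasma cell array 1 (0.0542, from 0.000699 to 0.136 over the alternatives). Man2a2 was at 7249, 6859 and 7066 in plasma cells and 3223, 5318 and 5648 in B cells. Its groups did not overlap, but it was not called (0.62 ± 0.23, adjusted p = 0.104) unless B cell array 1 was left out (0.36, adjusted p = 0.0225, from 0.0117 to 0.372 over the alternatives). Whether the 2 genes differ from each other was not tested. Mgat2, which starts the other antenna of the chain, was at 3016, 3304 and 2771 in plasma cells and 878, 942 and 959 in B cells (1.69 ± 0.12, adjusted p = 0.00031), and both of its probe sets rose. Every plasma cell array was well above every B cell array.

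Enzymes that add extra branches or the bisecting N-acetylglucosamine did not move one way. Over the 10 Mgat genes 4 rose and 1 fell, where 17.6% of all genes rose and 12.3% fell. Those that rose were Mgat1 and Mgat2, given above, and Mgat3 and Mgat4b. Mgat5, which starts a branch of tri- and tetra-antennary chains, was at 415, 267 and 637 in plasma cells and 954, 1047 and 1110 in B cells (−1.29 ± 0.31, adjusted p = 0.0246). The plasma cell arrays were uneven and array 3 was the highest. Leaving out plasma cell array 1 (0.0817), B cell array 2 (0.0757) or its replicate 3 (0.078) ended the call, and the alternatives gave an adjusted p of 0.00374 to 0.0817. Only 1 of the 3 probe sets of Mgat5 was called lower, and the others gave −0.16 and −0.62 without a call. The mean of all 3 also ended the call (−0.69, adjusted p = 0.07975). Mgat4a, which adds a branch to the other arm, was at 3039, 2792 and 2660 in plasma cells and 2652, 3555 and 3854 in B cells. It was not called (−0.23 ± 0.18, adjusted p = 0.385). Its other probe set was called higher (0.83, adjusted p = 0.0261), so the array gives no direction for it. Mgat3, which adds the bisecting N-acetylglucosamine, was at 126, 134 and 267 in plasma cells and 13.6, 23.0 and 17.7 in B cells (2.42 ± 0.30, adjusted p = 0.00195). The B cell values lay over background on 1 of 3 arrays. That rise rests on 1 of 3 probe sets, and the others gave −0.32 and −0.29 without a call. With the mean of all 3 the call was lost (0.60, adjusted p = 0.0574, within 0.000408 to 0.0574 over the alternatives). Mgat4b, a relative of Mgat4a, was called higher (0.88 ± 0.18, adjusted p = 0.0151) but lay over background on 2 plasma cell arrays only, and the fold that its background allows is at least 1.16-fold. Its call was lost without plasma cell array 1 (0.0665) or 2 (0.0635) or B cell array 2 (0.0556), and its adjusted p ran from 0.00137 to 0.113 over the alternatives.

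Of the enzymes that complete antibody sugar chains, Fut8, for the fucose of the core, and St6gal1, for terminal sialic acid, rose, and B4galt1, for galactose, was not called. Fut8 is the only enzyme known to put fucose on the core of N-glycans. It was at 7978, 8004 and 7104 in plasma cells and 313, 271 and 279 in B cells (4.67 ± 0.12, adjusted p = 2.07e-05). A second probe set of Fut8 gave 3.66 (adjusted p = 0.000769) and the dimmest one 0.23 without a call. St6gal1, the sialyltransferase that caps galactose on N-glycans of B lineage cells and builds the ligands of the B cell receptor CD22, was at 10293, 10223 and 9804 in plasma cells and 5721, 5601 and 5408 in B cells (0.86 ± 0.11, adjusted p = 0.00218). The groups did not overlap. Centring over the genes tested ended the call (0.0513, with 4.77e-05 the lowest over the alternatives). The dimmer probe set of St6gal1 gave a larger rise of 2.34 (900, 882 and 753 in plasma cells, 181, 175 and 113 in B cells), so the size of the change depends on the probe set. B4galt1, the main galactosyltransferase of N-glycans, was at 3414, 3345 and 3747 in plasma cells and 2795, 4080 and 4027 in B cells (−0.03 ± 0.18, adjusted p = 0.909). Its groups overlapped, with B cell array 1 below and the other B cell arrays above the plasma cell arrays. Over the 11 genes set out by name as the route to the sialylated complex chain of antibodies, 8 rose, 0 fell and 3 (Man1a, Man2a2 and B4galt1) were not called. Among all genes 17.6% were called higher and 12.3% lower. The list was drawn up with earlier results of these data known, and its count was not tested against other genes. Calls of Mgat1, Man2a1, St6gal1 and Mgat3 were each lost under at least 1 alternative. Those of Man1a2, Man1b1, Mgat2 and Fut8 held under every alternative, as did that of Man1c1, which is not on the list.

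**Figure D2:**
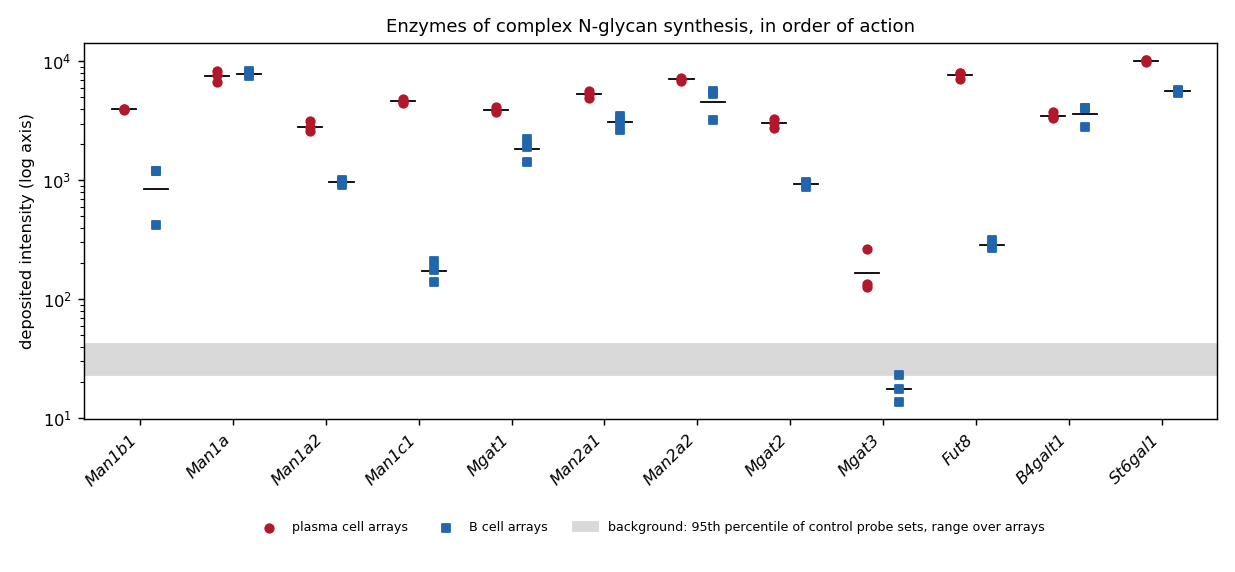
Deposited intensity on a log axis for 12 genes of complex N-glycan synthesis, from the first mannosidase to the sialic acid cap. Circles are the 3 plasma cell arrays and squares the 3 B cell arrays, black lines the geometric mean of each group, and the grey band the range of the background level over arrays (23.0 to 41.8). Man1c1 and Fut8 separate most, with plasma cell values of 4484 to 4844 and 7104 to 8004, while Man1a and B4galt1 overlap.

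Promoter windows from RefSeq (GRCm38.p6, 250 bases before to 50 after a transcript start) were found for 64 of the 87 genes, 89 windows in all. They were searched on both strands for letters bound by factors of the secretory cell programme. The ER stress response element (CCAAT and CCACG with 9 bases between) and its second form (ATTGG and CCACG with 1 base between) matched in 0 of the 89 windows, beside 0.119% and 0.0365% of all 32851 windows, and TGACGTGG, the XBP1-bound core, in 0 beside 0.676%. The shorter ACGTG, which lies inside that core, was in windows of 3 of 16 genes that rose, 6 of 13 that fell and 8 of 35 not called, against 21.8% of all genes. CAGCTG, a palindrome of the kind bound by the plasma cell factor Mist1, was in windows of 1 of 16, 4 of 13 and 8 of 35, against 18.3% of all genes. Such matches describe letters only. The windows of Man1c1, St6gal1 and B3gnt5 are printed because these genes were called and hold a match, given in capitals: CAGCTG 198 bases before the start in Man1c1 (chr4:134704241-134704540, minus strand), ACGTG on the opposite strand 211 bases before the start in St6gal1 (chr16:23225771-23226070, plus strand, 1 of its 3 windows), and in B3gnt5 (chr16:19759984-19760283, plus strand) ACGTG on the opposite strand 71 bases before the start with CAGCTG 237 bases before and from base 12 after it.
Man1c1: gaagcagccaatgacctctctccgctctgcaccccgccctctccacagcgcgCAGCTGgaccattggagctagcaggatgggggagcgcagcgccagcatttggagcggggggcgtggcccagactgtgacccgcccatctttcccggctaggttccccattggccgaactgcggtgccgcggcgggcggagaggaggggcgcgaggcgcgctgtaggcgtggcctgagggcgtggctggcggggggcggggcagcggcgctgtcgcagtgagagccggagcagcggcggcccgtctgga
St6gal1: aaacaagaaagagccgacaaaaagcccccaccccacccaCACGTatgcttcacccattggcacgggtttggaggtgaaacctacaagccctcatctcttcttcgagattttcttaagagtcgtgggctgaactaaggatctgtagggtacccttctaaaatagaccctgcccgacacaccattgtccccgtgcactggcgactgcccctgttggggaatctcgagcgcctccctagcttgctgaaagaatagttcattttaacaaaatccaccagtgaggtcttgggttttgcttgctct
B3gnt5: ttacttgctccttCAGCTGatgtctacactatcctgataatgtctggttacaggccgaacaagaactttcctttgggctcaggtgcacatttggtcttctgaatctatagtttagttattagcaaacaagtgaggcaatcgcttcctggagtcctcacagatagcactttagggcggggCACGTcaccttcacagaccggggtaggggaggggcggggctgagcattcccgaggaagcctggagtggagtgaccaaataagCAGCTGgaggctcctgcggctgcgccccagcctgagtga

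Over the 8 fucosyltransferases 4 rose (Fut8, Fut4, Fut1 and Fut2), 1 fell (Fut11) and 3 were not called (Fut7, Fut9 and Fut10). The shares over all genes were 17.6% higher and 12.3% lower. Fut4, which makes the Lewis x structure, was at 1878, 1675 and 1426 in plasma cells and 26.2, 10.7 and 3.29 in B cells. It lay within background on every B cell array, so its rise is at least 57.5-fold (adjusted p = 9.87e-05). Its other probe set was also called higher (1.42, adjusted p = 0.0119). Granulocytes express Fut4 as well. The sums of granulocyte markers given above, 8468 to 19970 on the plasma cell arrays and 1797 to 12561 on the B cell arrays, overlapped between the groups. Their part in the Fut4 values was not tested. Fut1, an enzyme of H antigen synthesis, was at 130, 151 and 113 in plasma cells and within background in B cells, at least 4.56-fold higher (adjusted p = 0.000144). Fut2, its relative, was at 109, 109 and 105 in plasma cells and 43.3 on B cell array 1, the others lying within background (1.78 ± 0.31, adjusted p = 0.0078). Fut11 fell, with 381, 329 and 334 in plasma cells and 612, 597 and 695 in B cells (−0.84 ± 0.13, adjusted p = 0.0047), a call that median centring ended (0.0858, with 0.000931 the lowest over the alternatives). Fut7, which makes selectin ligands on leukocytes, lay within background on all 6 arrays.

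Most sialyltransferases of the St3gal and St8sia families were not called. Of the 6 St3gal genes 0 rose and 2 fell, where 17.6% of all genes rose and 12.3% fell. St3gal6, which caps galactose of N-acetyllactosamine, was at 453, 555 and 501 in plasma cells and 1750, 1244 and 1265 in B cells (−1.45 ± 0.18, adjusted p = 0.00202), and 3 of its 5 probe sets were called lower. St3gal1, which caps the O-glycan core, was at 646, 605 and 485 in plasma cells and 803, 1276 and 1721 in B cells (−1.05 ± 0.30, adjusted p = 0.0429). The call of St3gal1 was lost without any 1 array other than B cell array 1 (0.0936 to 0.132), and over all alternatives its adjusted p ran from 0.00137 to 0.234. The dimmer probe set of St3gal1 overlapped between the groups and was not called (−0.22, adjusted p = 0.751). Among 6 St8sia genes, which link sialic acid to sialic acid, 1 rose (St8sia6) and 0 fell. It was at 4661, 4913 and 4012 in plasma cells and 594, 762 and 730 in B cells (2.68 ± 0.15, adjusted p = 0.000135). All 3 of its probe sets rose, by 2.68, 2.88 and 3.23. St8sia6 makes disialic acid structures that serve as ligands of Siglec receptors. St8sia4, a polysialic acid synthase, was at 6321, 6455 and 5962 in plasma cells and 7602, 7070 and 6649 in B cells. It was not called (−0.18 ± 0.12, adjusted p = 0.298), while its dimmer probe set was called higher (0.71, adjusted p = 0.0209).

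The St6galnac genes, which put sialic acid on N-acetylgalactosamine of O-glycans and on gangliosides, changed in both directions, with 2 of 6 higher and 1 lower. All genes gave 17.6% higher and 12.3% lower. St6galnac6 was at 1032, 1017 and 1148 in plasma cells and 250, 365 and 370 in B cells (1.67 ± 0.18, adjusted p = 0.00128). St6galnac4 was at 735, 703 and 631 in plasma cells and 346, 331 and 312 in B cells (1.03 ± 0.12, adjusted p = 0.00172). St6galnac3 went the other way, with 218, 216 and 281 in plasma cells and 504, 513 and 619 in B cells (−1.14 ± 0.16, adjusted p = 0.00325). By the brightest probe set of each of these genes the groups were apart. The other probe set of St6galnac4 overlapped between the groups and was not called (0.28, adjusted p = 0.527). The call of St6galnac3 rests on 1 of 3 probe sets and was lost with the mean of all of them (0.113, within 0.000349 to 0.113 over the alternatives). Its other probe sets differed in direction, with 0.66 and −0.96, and neither was called.

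**Figure D3:**
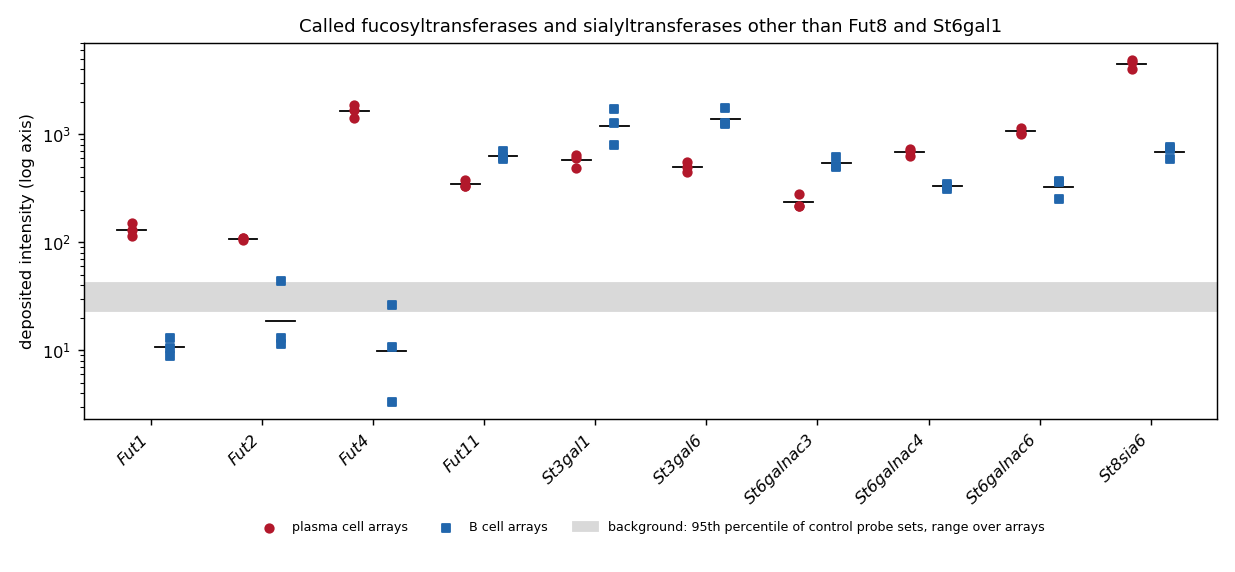
Deposited intensity on a log axis for the called fucosyltransferases and sialyltransferases other than Fut8 and St6gal1. Circles are plasma cell arrays, squares B cell arrays, black lines geometric means and the grey band the background range. Fut4 stands at 1426 to 1878 in plasma cells with all 3 B cell arrays within background, and St8sia6 at 4012 to 4913 in plasma cells against 594 to 762 in B cells.

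Galactosyltransferases of the B4galt family gave 0 of 7 higher and 2 lower, where all genes gave 17.6% and 12.3%. B4galt5, a lactosylceramide synthase of glycolipid synthesis, was at 1280, 1045 and 1312 in plasma cells and 3536, 3374 and 3686 in B cells (−1.54 ± 0.14, adjusted p = 0.000618). Its other probe set, within background on all arrays, gave 0.15 without a call (adjusted p = 0.694, with 4.33e-05 the lowest over the alternatives). B4galt3 was at 346, 398 and 496 in plasma cells and 862, 1211 and 1190 in B cells (−1.36 ± 0.20, adjusted p = 0.00426), and both its probe sets fell. B4galt6, the other lactosylceramide synthase, was at 284, 315 and 311 in plasma cells and 442, 113 and 122 in B cells. It was not called with all arrays (0.66 ± 0.50, adjusted p = 0.373) but was called higher without B cell array 1 (1.25, adjusted p = 0.000597, from there to 0.671 over the alternatives). The B3galt family gave 3 of 5 higher and 0 lower. B3galt5, which makes type 1 chains, was at 377, 366 and 389 in plasma cells and within background in B cells, at least 13.2-fold higher (adjusted p = 8.32e-05). That bound is of the brightest of its 4 probe sets, and another was also called higher (1.84, adjusted p = 0.00453). The remaining ones gave 0.64 and 0.20 without a call. The last lay over background on all 3 B cell arrays (52.6, 28.3 and 29.7). B3galt4, an enzyme of ganglioside synthesis, was at 771, 833 and 768 in plasma cells and 169, 366 and 402 in B cells (1.38 ± 0.32, adjusted p = 0.0228). Its call was lost without any 1 of the plasma cell arrays (0.0702 to 0.081, within a range of 0.000455 to 0.081 over the alternatives). B3galt6, which builds the linker of proteoglycans, had a log2 fold change of 0.83 ± 0.23 (adjusted p = 0.0422), lost without any 1 array other than B cell array 3 (0.0586 to 0.138, within 0.00682 to 0.172 over the alternatives).

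Among the enzymes of O-glycan initiation, more were called lower than higher in plasma cells, and most were not called. Of 18 Galnt genes 1 rose, 6 fell and 6 lay within background on all arrays, where 17.6% of all genes rose and 12.3% fell. Galnt2, a broadly expressed starter of O-glycans, was the one that rose, at 4038, 3948 and 3826 in plasma cells and 1213, 1240 and 1402 in B cells (1.61 ± 0.12, adjusted p = 0.000312), and its 3 probe sets were all called higher. Galnt6 was at 77.7, 124 and 115 in plasma cells and 872, 1416 and 1440 in B cells (−3.36 ± 0.26, adjusted p = 0.000374). Galnt10, which prefers peptides that already carry a sugar, was at 71.9, 53.4 and 78.1 in plasma cells and 456, 722 and 746 in B cells (−2.95 ± 0.24, adjusted p = 0.000414). For both genes a second probe set was called lower by less, −0.82 for Galnt6 and −1.57 for Galnt10. Galnt12 was at 437, 481 and 465 in plasma cells and 820, 1308 and 1291 in B cells (−1.25 ± 0.21, adjusted p = 0.00661). The other Galnt genes that fell were Galnt1 (−0.86), Galnt11 (−0.74) and Galnt4 (−0.47), each below 2-fold. Median centring ended the calls of Galnt1 (0.0897, with 0.000132 the lowest over the alternatives) and Galnt11 (0.124, lowest 0.000499). The call of Galnt4 (adjusted p = 0.0446) was lost without any 1 array other than B cell array 1 (0.0809 to 0.161, within 0.00947 to 0.405 over the alternatives). Galnt7 was not called by its brightest probe set, at 1120, 1320 and 1304 in plasma cells and 1260, 558 and 535 in B cells (0.77 ± 0.35, adjusted p = 0.155). Its other probe sets were called higher (0.98 and 1.00), as was the brightest one without B cell array 1 (1.17, adjusted p = 0.0012, from 0.000664 to 0.33 over the alternatives).

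Among 4 Gcnt genes 0 rose and 1 fell, where 17.6% of all genes rose and 12.3% fell. Gcnt1, which branches O-glycans into core 2 structures, was at 131, 109 and 329 in plasma cells and 3274, 3011 and 3166 in B cells (−4.09 ± 0.39, adjusted p = 0.00074), and its other probe set fell by 3.89. Plasma cell array 3 was the highest of its group, yet far below the B cell arrays. Gcnt2, which branches lactosamine chains, was scattered over 351, 116 and 905 in plasma cells and 228, 141 and 82.5 in B cells, and none of its 8 probe sets was called.

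The B3gnt genes, which extend chains, held both the deepest fall of the whole group and one of its largest rises, with 2 of 9 higher and 3 lower. The shares over all genes were 17.6% higher and 12.3% lower. B3gnt5, which starts lacto-series glycolipids, was at 111, 136 and 336 in plasma cells and 5853, 6578 and 6641 in B cells (−5.07 ± 0.39, adjusted p = 0.000353), and its dimmer probe set fell by 3.76. B3gnt8, which extends branched N-glycans with lactosamine, was at 107, 126 and 236 in plasma cells and 580, 1299 and 1223 in B cells (−2.60 ± 0.41, adjusted p = 0.00524). B3gnt7 lay within background in plasma cells and at 37.9, 73.0 and 81.6 in B cells, over background on 2 of 3 B cell arrays, at least 2.00-fold lower (adjusted p = 0.0103). Quantile normalization ended that call (0.0583, with 7.23e-05 the lowest over the alternatives). B3gnt9 rose, at 1083, 1016 and 902 in plasma cells and 17.5, 27.1 and 33.5 in B cells (4.61 ± 0.18, adjusted p = 4.75e-05), where it lay over background on 2 of 3 B cell arrays. B3gntl1 rose by 0.73 ± 0.17 (adjusted p = 0.0244). That call was lost without any 1 plasma cell array or B cell array 3 (0.0544 to 0.0903, within 0.00194 to 0.333 over the alternatives). The direction of B3gntl1 depends on the probe set, since the dimmer one gave −0.14 without a call (adjusted p = 0.709). With the mean of both the log2 fold change was 0.29 (adjusted p = 0.333). B3gnt2, the main lactosamine extender, was at 4102, 3972 and 4622 in plasma cells and 4848, 4701 and 5020 in B cells. It was not called (−0.20 ± 0.12, adjusted p = 0.270). In Gcnt1, B3gnt5, B3gnt8, Mgat3 and Mgat5 plasma cell array 3 was the highest of its group. The same held for other called genes, among them B4galt3, B4galt5, Galnt10, St6galnac3, St6galnac6 and B3galt5. In others, such as Fut8, Fut4, St8sia6 and Galnt2, that array was the lowest. Il7r, a marker that T cells and early B lineage cells share, was at 963, 559 and 2834 on the 3 plasma cell arrays. Of the T cell markers, Cd3e was at 225, 175 and 502 on the same arrays and Cd8a at 71.7, 95.4 and 60.1. The B cell markers summed to 7722, 7751 and 7036 there (8 genes, against 49938 to 58132 in B cells). Most of these plasma cell sums came from Ptprc (4251, 4288 and 4170) and Ms4a1 (3128, 3080 and 2486). None of the other B cell markers was above 166 on a plasma cell array. What part cells with Il7r, T cell or B cell markers had in the values of the enzymes was not tested.

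**Figure D4:**
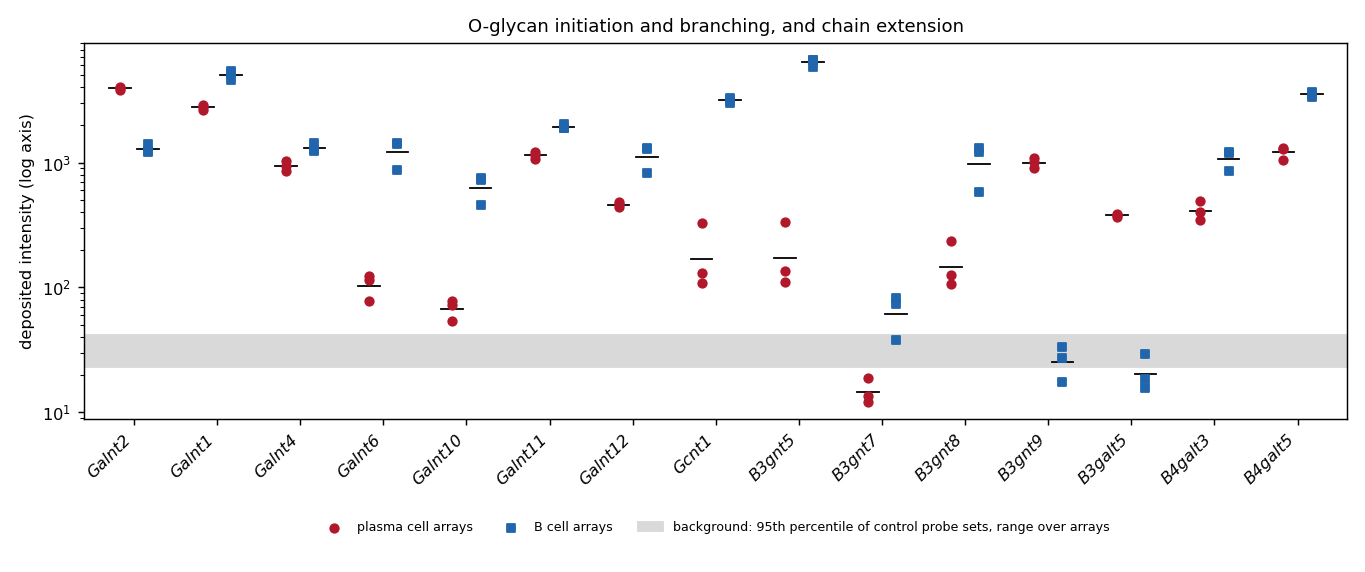
Deposited intensity on a log axis for called genes of O-glycan initiation (Galnt), O-glycan branching (Gcnt1) and chain extension (B3gnt, B3galt5, B4galt). Circles are plasma cell arrays, squares B cell arrays, black lines geometric means and the grey band the background range. Gcnt1 and B3gnt5 stand at 109 to 336 in plasma cells against 3011 to 6641 in B cells, and Galnt2, B3gnt9 and B3galt5 are the genes shown here that are higher in plasma cells.

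Probe sets of a gene were not called in opposite directions, but often only some of them were called. Of the 39 called genes 27 had more than 1 probe set, 10 of these had every probe set called the same way and 0 had one called the other way. Another 5 genes that were not called (B4galt6, Galnt7, Mgat4a, St3gal3 and St8sia4) had a dimmer probe set that was.

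**Figure D5:**
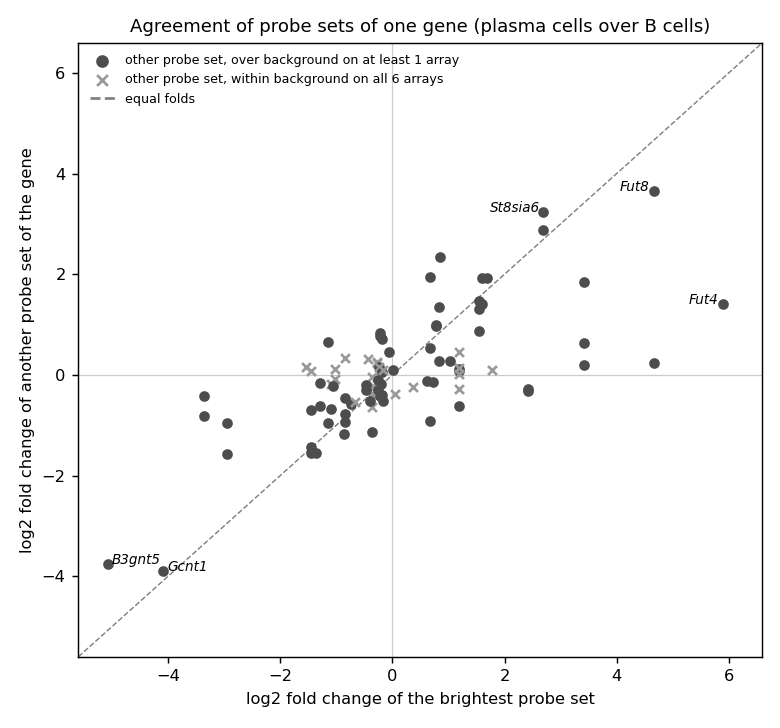
Log2 fold change, plasma cells over B cells, of every other probe set of a gene (vertical) against that of its brightest one (horizontal), with the dashed line marking equal folds. Crosses are probe sets within background on all 6 arrays. Fut4 lies far below the line (1.42 beside 5.90), Gcnt1 close to it (−3.89 beside −4.09), and both points of St8sia6 lie above it.

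Without B cell array 1, 24 of the 87 genes were called higher and 20 lower. Calls over all 18193 genes also became more frequent, with 4121 higher and 3830 lower, beside 3193 and 2246 with all arrays. Of the genes called with all arrays, 21 of the 22 and 17 of the 17 were called again, B3galt6 being the exception. The added calls were B4galt6, Galnt7 and Man2a2 as higher and Mgat4a, Mgat4e and St3gal3 as lower, of which Mgat4e lies within background on all arrays. On that array 12 of the 87 genes were at least 2-fold above the mean of B cell arrays 2 and 3 and 3 (Man1b1, B3galt4 and B3gnt8) at least 2-fold below it, where all genes gave 2709 and 818. The count of all genes called lower depended more on the arrays used. It was 2246 with all of them and 3830 when B cell array 1 was dropped. Dropping plasma cell array 1 gave 1347, and dropping the second gave 1369.

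Genes that make activated sugars were mostly higher or not called. Of 19 genes of nucleotide sugar synthesis 10 rose and 1 fell, with a median log2 fold change of 0.69. For this list and the next, the shares over all genes were 17.6% higher and 12.3% lower. Gmds, which makes the fucose donor, was at 1585, 1548 and 1492 in plasma cells and 146, 341 and 330 in B cells (2.52 ± 0.32, adjusted p = 0.00231). Gne, which starts sialic acid synthesis, rose by 2.23 ± 0.27 and Nans, a later enzyme of the same path, by 2.17 ± 0.21. Amdhd2, which breaks down N-acetylglucosamine, fell (−0.75 ± 0.18, adjusted p = 0.0267), a call lost without any 1 array other than B cell array 1 (0.0682 to 0.0993, within an upper limit of 0.196 over the alternatives). Of 18 genes of the Slc35 family, most of them nucleotide sugar transporters of the Golgi and ER, 5 rose and 0 fell. Slc35b1 led with 5645, 5904 and 5682 in plasma cells and 1222, 1474 and 1432 in B cells (2.05 ± 0.13, adjusted p = 0.000162), followed by Slc35e1 (1.09 ± 0.13) and Slc35b2 (0.71 ± 0.21, adjusted p = 0.0492). The call of Slc35b2 was lost without B cell array 2 or any 1 plasma cell array (0.0845 to 0.157, with 0.252 the highest over the alternatives). Slc35a1, the carrier of the sialic acid donor, chosen after its values were seen, was not called (0.34, adjusted p = 0.169), except without B cell array 1 (0.00919) and in 2 other settings, with a highest adjusted p of 0.651.

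In a list of ER glucosidases, the endomannosidase and quality control lectins 12 of 14 genes rose and 0 fell. The shares over all genes, for this list and the next, were 17.6% higher and 12.3% lower. Edem2, which helps remove mannose from misfolded glycoproteins, rose by 3.26 ± 0.17, the cargo lectin Lman1 by 2.82 ± 0.17 and Edem1 by 2.34 ± 0.11. The list of Golgi transferases outside the family rule was mixed, with 8 of 21 genes higher and 5 lower. It also holds Cmah and C1galt1c1, both called higher, and Casd1, called lower, which are not glycosyltransferases. B3galnt1, the globoside synthase, was at 1985, 1341 and 1346 in plasma cells and within background in B cells, at least 53.4-fold higher (adjusted p = 4.75e-05). A4galt, which makes the precursor of globoside, lay over background on 2 plasma cell arrays and on 0 B cell arrays, at least 2.44-fold higher (adjusted p = 0.00646). Pomgnt1, of protein O-mannosylation, was at 1726, 1718 and 1514 in plasma cells and 447, 622 and 683 in B cells (adjusted p = 0.00214). Lfng, a modifier of Notch receptors, was at 29.8, 11.8 and 62.9 in plasma cells and 1250, 1917 and 1831 in B cells (−5.15 ± 0.40, adjusted p = 0.000378), and lay over background on 2 plasma cell arrays. B4galnt1, which makes gangliosides, was at 204, 266 and 304 in plasma cells and 3003, 5055 and 5175 in B cells (−3.99 ± 0.27, adjusted p = 0.00022). For the first step of O-glycan extension, both genes chosen after their values were seen, the chaperone gene C1galt1c1 rose (1.22 ± 0.23, adjusted p = 0.00964) and the transferase gene C1galt1 was not called (−0.39 ± 0.20, adjusted p = 0.203). Without B cell array 1 C1galt1 was called lower (0.0119).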

How the data were processed

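RNA was amplified (NuGEN Ovation V2) and biotin-labelled before hybridisation, per the labels' protocols. The authors deposited linear intensity values, 1 per probe set and array. Summarisation, background correction and normalization are not given in the sources used here. The upper quartile ranged from 625 to 684 and the highest value from 25764 to 26749 over the 6 arrays, and 0 columns lacked a sample.

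Of 45101 probe sets, 64 were controls, 34945 had 1 symbol in the platform annotation, 932 had several and 9160 are unnamed here. Entrez identifiers matched 34741 of them to current RefSeq symbols (GRCm38.p6). Of the genes in the rule, 31 had 1 probe set and 56 several. A pseudogene with a Fut symbol and 1 probe set naming B4galt2 with another gene were left out, and Galnt17, Gcnt4 and Mgat4f are not analysed here. Intensities were used as log2(intensity + 16), so folds of dim genes are understated, and the probe set with the highest mean stood for a gene. Plasma cells were compared with B cells in limma 3.58.1 under R 4.3.3 (lmFit, eBayes), with Benjamini-Hochberg adjustment over all genes. SE is that of the fitted fold on the log2 scale. A gene within the 95th percentile of 27 bacterial control probe sets on all arrays of a group is given a bound, computed from log2 intensities without the constant. With 3 arrays a group, precision is limited by their number. The procedure was tested on simulated data.

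The members, lists and tests were chosen with earlier results of these data known. Values per array are given for the 11 enzymes of the antibody route and for called members with a log2 fold change of at least 1 and groups apart. Others are given by count or fold. Of each further list up to 3 called genes in the main and 2 in the opposite direction are named. Uncalled genes outside that route given with values were chosen after their values were seen. Alternatives changed the pseudocount, scaling, filter, probe sets, variance model, array weights, replicate block and arrays.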

Additional observations from a re-analysis of the deposited data

How the results depend on the processing

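The members called ranged, over 17 alternatives, from 15 to 29 higher and from 12 to 23 lower, beside 22 and 17 as reported, and every count lay within 1.5 times the reported one. The same call held under every alternative for 14 genes that rose and 8 that fell, among them Fut8, Man1c1, Man1a2, Mgat2, Fut4, St8sia6, B3gnt5, Gcnt1, Galnt6 and Galnt10. Direction changed for genes that were not called: B4galt1 gave 0.083 after median centring and, leaving out 1 array, ranged from −0.21 to 0.06, Man1a gave 0.20 with the mean of all probe sets and 0.048 after median centring and ranged from −0.14 to 0.0075 leaving out 1 array, and with the mean of all probe sets Mgat4a gave 0.30 and St8sia4 0.26. B4galt5 turned to 0.15 without probe sets of suffix x or s, which leaves a probe set within background on all arrays. Over all genes, array weights gave 4840 higher and 4654 lower. Median centring gave 2588 higher and 1243 lower and moved the median log2 fold change of all genes by 0.12. Centring over the genes tested, chosen after seeing the data, gave 2028 higher and 2780 lower and moved that median by −0.21, which ended the calls of Mgat1 (adjusted p = 0.0516), St6gal1 (0.0513), B3galt4 (0.0608), B3galt6 (0.172), B3gntl1 (0.199), Galnt4 (0.0638), Man2a1 (0.136) and Mgat4b (0.113). Median centring ended those of Galnt1 (0.0897), Galnt11 (0.124), Fut11 (0.0858), Man2a1 (0.0571), B3galt6 (0.08), B3gntl1 (0.0893), Galnt4 (0.405) and St3gal1 (0.132). Leaving out 1 array gave 2224 to 4121 higher and 1347 to 3830 lower genes. The cause was not tested.

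The replicate numbers of the labels were checked for pairing. Deviations from the group means of arrays with the same number correlated by 0.05, 0.00 and 0.05. Each plasma cell array correlated most with the B cell array of its own number. With 3 arrays a group and B cell array 1 standing apart, values this small do not decide whether the numbers mark pairs. Xist was at 8070 and 8244 on plasma cell arrays 2 and 3 but at 30.8 and 18.1 on B cell arrays 2 and 3, so samples with these numbers differed in sex. With the replicate block 18 members were higher and 15 lower, and 2457 and 1664 of all genes. Intensities near the background limit what can be said of the 14 members that lay within it on all arrays.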

Other observations

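Genes of glycan breakdown and of Golgi structure moved in the same comparison. Of 14 measured enzymes that degrade glycans in lysosomes or the cytosol 5 rose and 1 fell, with a median log2 fold change of 0.42. All genes gave 17.6% higher and 12.3% lower. Glb1, the lysosomal beta-galactosidase, was at 4153, 3934 and 3633 in plasma cells and 611, 834 and 793 in B cells (2.37 ± 0.16, limma adjusted p = 0.000221). Aga, which cleaves the link between asparagine and the glycan, rose by 2.11 ± 0.11, and Ngly1, which strips N-glycans from misfolded proteins in the cytosol, by 1.34 ± 0.14. Manba, the lysosomal beta-mannosidase, fell (−0.71 ± 0.14, adjusted p = 0.0108), a call lost without plasma cell array 1 (0.0536) or 2 (0.0516), with 0.156 the highest over the alternatives.

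Of 26 measured genes of the conserved oligomeric Golgi complex and the Golgi matrix 15 rose and 1 fell, with a median log2 fold change of 0.57. Uso1, a vesicle tether, was at 4816, 4896 and 4149 in plasma cells and 1014, 1297 and 1336 in B cells (1.92 ± 0.16, adjusted p = 0.000459). Golim4 rose by 1.87 ± 0.13 and Golph3l by 1.24 ± 0.13. Golm1 was the member that fell, with 289, 241 and 374 in plasma cells and 589, 856 and 767 in B cells (−1.25 ± 0.22, adjusted p = 0.00766). Among all genes 17.6% were called higher and 12.3% lower.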
